A study of Mus musculus with 12 samples.

Results

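The genes described here are 10 members of the insulin and FOXO pathway, measured in the liver of mice after chronic running. They are Insr, Irs1, Irs2, Grb10, Pik3r1, Pik3ca, Akt1, Akt2, Foxo1 and Foxo3, chosen by their symbols among the 16821 genes listed for each mouse. The 12 mice were adult C57BL/6J males, bought at 8 weeks of age and fed freely, with a single library per mouse. The paper used principal component analysis to exclude outliers and does not state how many mice were removed. The spreads given here are those of the mice kept. The sedentary control (Con) group held 6 mice that stayed in the room without a treadmill. The chronic exercise (Exe) group held 6 mice that ran on a treadmill 60 min a day on 5 days of each of 6 weeks and were killed within 24 h of the last run. Neither the labels nor the methods name a fast before the liver was taken, and no genotype or transgene differed between the groups. Levels are FPKM, fragments scaled to the length of the transcript and to the size of the library, so levels of different genes can be compared per length.

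Insulin released after a meal binds its receptor on hepatocytes, and the receptor phosphorylates the substrates IRS1 and IRS2. These recruit PI3 kinase, whose lipid product activates the AKT kinases, and AKT phosphorylates FOXO transcription factors and keeps them out of the nucleus. In the fasted liver FOXO proteins return to the nucleus and raise genes of glucose output, and the circuit closes on itself since Irs2 is a FOXO target. The pathway is switched by phosphorylation, which RNA levels do not record.

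The libraries had the makeup of liver. The 9 hepatocyte markers in the files summed to between 58626 and 74147 FPKM in Con mice and to between 64942 and 80723 FPKM in Exe mice, and 6 skeletal muscle markers to at most 0.26 FPKM. The 8 Kupffer cell markers reached from 199.5 to 363.9 FPKM in Con mice and from 140.1 to 331.5 FPKM in Exe mice. The sum of 9 acute-phase genes had a median of 21865 FPKM in Con and 11938 FPKM in Exe mice and was highest in Con 1 (41957 FPKM) and Exe 5 (41631 FPKM). The median sum of 6 biliary markers was 65.9 FPKM in Con and 35.6 FPKM in Exe mice, and Exe 5 also held the highest sum of 5 pancreatic markers (15.5 FPKM, against at most 1.14 FPKM in Con mice). In whole tissue, fewer cells of a type and less RNA per cell cannot be told apart.

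Chronic exercise left each of the 10 genes with overlapping levels in the Con and Exe groups, and none passed the test between groups. Akt2 and Akt1 were the most abundant, and their ratio was the 1 measure of 5 ratios to pass its test, in 5 of 12 cases also with 1 mouse left out. The ratios were chosen with earlier results of these data known, and the adjustment does not cover that choice. The share of other gene pairs whose ratio would differ as much was not computed. Akt2 was 1.37 ± 0.063 times Akt1 in Con mice and 1.54 ± 0.091 times in Exe mice (SD, n = 6 in each group). Irs2 was the gene that differed most from mouse to mouse. Of the 9 members past the filter on low values (at least 1 FPKM in at least 6 of the 12 mice, which 10241 genes passed), 0 reached an adjusted p of 0.05 and 0 an unadjusted p of 0.05 from limma on log2(FPKM + 1). Over all genes tested, 6.21% reached the unadjusted p (4.27% higher and 1.94% lower in Exe mice) and 0% the adjusted p. The paper used another test, DESeq, and reported differentially expressed genes in both directions between these groups. Without counts that test was not repeated here, so the 0% does not mean that no transcript responded to running. Grb10 was below the filter. The groups were separate for 0 of the 9 members and for 0.254% of all genes tested. Of the 9, 6 had a higher and 3 a lower mean log2 level in Exe mice, where 57.5% of all genes tested were higher, and their median log2 fold change was 0.02, the same to 2 decimals as over all genes tested.

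**Figure D1:**
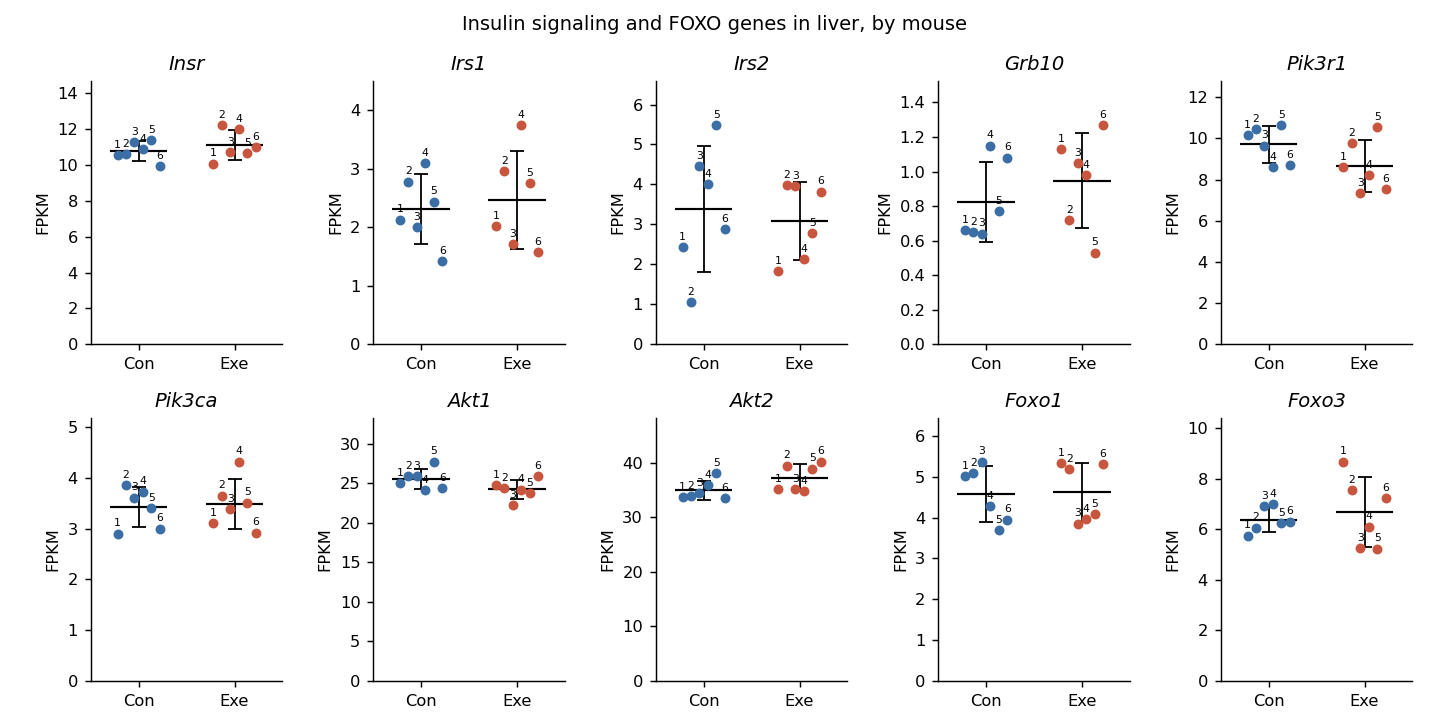
FPKM (y axis, from 0) of each gene in the 6 Con (blue) and 6 Exe (red) mice, with replicate numbers beside the points, the group mean as a line and the SD as a bar. The points of both groups overlap for all 10 genes, and Irs2 spreads most, from 1.05 to 5.49 FPKM in Con mice.

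Ordered by mean level over the 12 mice, the genes ran from Akt2 (36.1 FPKM) and Akt1 (24.9 FPKM) through Insr (10.95 FPKM), Pik3r1 (9.19 FPKM), Foxo3 (6.52 FPKM), Foxo1 (4.59 FPKM), Pik3ca (3.45 FPKM), Irs2 (3.24 FPKM) and Irs1 (2.39 FPKM) to Grb10 (0.886 FPKM). Akt2 lay above Akt1, Akt1 above Insr and Irs1 above Grb10 in 12 of 12 mice with no overlap of their ranges. Insr was above Pik3r1 and Foxo3 above Foxo1 in 12 of 12 mice, but the ranges of these neighbours overlapped. Pik3r1 was above Foxo3 in 11 mice, Foxo1 above Pik3ca in 11, and Irs2 above Irs1 in 9. Pik3ca and Irs2 were not ordered, with Pik3ca higher in 6 of 12 mice. The AKT kinases and the receptor were thus more abundant per length than the substrates that link them.

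Insr encodes the insulin receptor, a tyrosine kinase at the cell surface. Its level was between 9.93 and 11.4 FPKM in Con mice (median 10.8) and between 10.1 and 12.2 FPKM in Exe mice (median 10.8). Exe 2 and Exe 4 were above every Con mouse, and the other 4 Exe mice lay among them. The log2 fold change was 0.04 (95% interval -0.08 to 0.16, limma, adjusted p = 0.957). Insr was among the steadiest genes of this liver, with a smaller SD of its log2 level over the 12 mice in only 7.70% of the genes tested. Igf1r, the receptor of the related growth factor IGF1, stayed between 0.12 and 0.21 FPKM and below the filter.

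Irs1 and Irs2 encode the main docking proteins that carry the signal from the receptor to PI3 kinase. Irs1 was between 1.42 and 3.09 FPKM in Con mice (median 2.29) and between 1.58 and 3.75 FPKM in Exe mice (median 2.39). The lowest value lay in Con 6 and the highest in Exe 4. Its log2 fold change was 0.05 (95% interval -0.29 to 0.39, limma, adjusted p = 0.977), and the sign turned without Con 6 (-0.04) or without Exe 4 (-0.05).

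Irs2 was between 1.05 and 5.49 FPKM in Con mice (median 3.45) and between 1.83 and 3.99 FPKM in Exe mice (median 3.31). Both extremes were Con mice, Con 2 at the bottom and Con 5 at the top, and all 6 Exe values fell between them. The highest mouse held 5.23 times the level of the lowest. The SD of the log2 level of Irs2 exceeded that of 97.3% of the genes tested, and that of Irs1 90.9%. The log2 fold change of Irs2 was -0.05 with a 95% interval from -0.58 to 0.49 (limma, adjusted p = 0.986), the widest of the 9 members, and with 6 mice a group a change within it could not be told from 0. Without each of 5 mice in turn (Con 3, Con 4, Con 5, Exe 1 or Exe 4) the sign turned, up to 0.09 without Con 5.

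Irs2 was 1.55 ± 0.747 times Irs1 in Con mice and 1.43 ± 0.768 times in Exe mice (SD, n = 6), and reached from 0.378 in Con 2 to 2.42 in Exe 6. The mean log2 ratio differed between groups by -0.09 (exact two-sided permutation p = 0.870). Irs1 made up 43.2% and Irs2 55.5% of the FPKM of the IRS family, while Irs3 made up 1.24%. Over the 12 mice the correlation of Irs1 with Irs2 did not pass the test (Pearson's r = -0.20, permutation p = 0.525, adjusted over 6 pairs 0.788, Spearman's rho = -0.11, p = 0.731).

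Irs2 was set beside Igfbp1, the gene of a secreted IGF binding protein and a textbook FOXO target that insulin represses. Igfbp1 was 11.6 to 30.2 FPKM across Con and 10.1 to 39.9 FPKM across Exe mice. The 4 mice with the highest Igfbp1 (Con 3, Con 5, Exe 3 and Exe 6, at 29.4 FPKM or more) held Irs2 at 3.82 FPKM or more. The 3 mice with the lowest Irs2 (Con 2, Exe 1 and Exe 4) held Igfbp1 at 15.5 FPKM or less. Con 1 and Exe 5 followed this pattern less closely. Con 1, the next mouse above these 3 in Irs2 (2.43 FPKM), held Igfbp1 at 24.97 FPKM. Exe 5 held Irs2 at 2.79 FPKM with Igfbp1 at only 10.11 FPKM. Over the 12 mice Pearson's r of the log2 values was 0.73 (permutation p = 0.00637, adjusted over 6 pairs 0.0382) and Spearman's rho 0.67 (permutation p = 0.0205, adjusted 0.123). Without Con 2 and Exe 1, the mice farthest from the median of Irs2, r was 0.70 (permutation p = 0.0266, not adjusted) and rho 0.55. Within Con mice r was 0.90 (exact permutation p = 0.0222) and within Exe mice 0.74 (exact permutation p = 0.124). By rank, rho was 0.77 within Con (exact permutation p = 0.103) and 0.60 within Exe mice (exact permutation p = 0.242). With 1 mouse left out in turn r stayed between 0.70 and 0.80, and its adjusted p between 0.0186 and 0.109, under 0.05 in 3 of 12 cases (without Con 1, Exe 5 or Exe 6).

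Of the other genes set beside Irs2, 3 more are given here, and none passed the test over 12 mice. For Insr r was 0.38 (permutation p = 0.223) and rho 0.55 (p = 0.0715). Within Con and Exe mice rho with Insr was 0.77 and 0.60, the same as with Igfbp1. For Foxo1, whose protein acts on Irs2, r was -0.27 (permutation p = 0.404) and rho -0.16 (p = 0.617). Pck1, the gene of a rate-limiting enzyme of glucose synthesis and another known FOXO target, gave an r of 0.02 (permutation p = 0.941) and a rho of 0.11 (p = 0.733). Adjusted over the 6 pairs, the p of r was at least 0.668 for these 3 genes.

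Over the 12 mice the adjusted r of Irs2 with Igfbp1 passed its test, its adjusted rho did not, and Irs1 passed neither. The pairs were chosen with earlier results of these data known. The share of other genes with as high an r with Irs2 was not computed. Depth and tissue makeup shared within a library also enter such an r, and their part was not tested. The DNA upstream of Irs2, Irs1 and Igfbp1, these 3 genes, is shown from the RefSeq promoter table of build GRCm38.p6. The authors aligned to another build, GRCm39. Each window holds the 250 bases before the annotated start site, 5′ to 3′ on the strand of the gene. The capitals mark the 7 letters CAAAACA on either strand (TGTTTTG where the match is on the opposite strand), the core of the insulin response element of the Igfbp1 promoter at which FOXO1 is known to bind. The windows lie at chr8:11008930-11009179 (minus strand) for Irs2, chr1:82291440-82291689 (minus strand) for Irs1 and chr11:7197537-7197786 (plus strand) for Igfbp1.
Irs2: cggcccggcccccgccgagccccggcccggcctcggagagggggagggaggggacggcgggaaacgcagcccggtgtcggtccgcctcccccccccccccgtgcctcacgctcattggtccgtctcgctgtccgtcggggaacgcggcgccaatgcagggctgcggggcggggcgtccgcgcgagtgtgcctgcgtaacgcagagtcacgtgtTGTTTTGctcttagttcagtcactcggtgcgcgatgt
Irs1: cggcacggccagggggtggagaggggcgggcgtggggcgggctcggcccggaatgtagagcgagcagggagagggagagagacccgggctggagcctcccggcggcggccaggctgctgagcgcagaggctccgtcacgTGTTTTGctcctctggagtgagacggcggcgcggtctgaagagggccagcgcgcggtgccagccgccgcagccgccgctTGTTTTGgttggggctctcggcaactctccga
Igfbp1: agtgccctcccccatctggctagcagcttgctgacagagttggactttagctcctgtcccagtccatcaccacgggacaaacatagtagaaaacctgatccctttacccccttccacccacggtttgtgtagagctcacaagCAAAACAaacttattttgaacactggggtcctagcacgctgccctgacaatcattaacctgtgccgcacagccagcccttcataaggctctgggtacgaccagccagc
The Irs2 window holds 1 match, from 37 to 31 bases before the start site. Irs1 holds 2 matches, starting 111 and 32 bases before its start site, and Igfbp1 holds 1, starting 108 bases before. Of the 32851 start sites in the table, 5.56% hold CAAAACA in this window. The window of Pck1 holds neither motif, and bases beyond the 250 were not searched. That of G6pc, another gene known to be raised by FOXO, holds 1 match of CAAAACA, starting 174 bases before its start site. The pair of Irs2 and G6pc was not examined. Promoters of 9 of the 10 members were in the table, with 15 start sites in all, and none was there for Insr. Of the 15, 2 held CAAAACA (those of Irs1 and Irs2) and 1, a start site of Akt1, held GTAAACA, the core of the forkhead element bound by FOXO proteins, which 3.17% of all windows hold. Neither motif overlaps the other. A match of letters is not a measured binding site.

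Grb10 encodes an adaptor that binds the active receptor and dampens its signal, from an imprinted locus. It was between 0.64 and 1.15 FPKM in Con mice (median 0.715) and between 0.53 and 1.27 FPKM in Exe mice (median 1.02). In 5 of the 12 mice it was at 1 FPKM or more, namely Con 4, Con 6, Exe 1, Exe 3 and Exe 6. Its log2 fold change was 0.09, and the exact permutation test gave p = 0.452 (two-sided, n = 6). Adding 1 FPKM shrinks the fold change of so low a gene. Grb10 was 1.04% of the summed FPKM of Grb7, Grb10 and Grb14, the 3 related adaptors of the liver. Grb14, another inhibitor of the receptor, made up 39.0% and Grb7 59.9%. The ratio of Insr to Grb10 was 13.9 ± 3.65 in Con mice and 12.9 ± 4.71 in Exe mice (SD, n = 6, exact permutation p = 0.593).

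Pik3r1 encodes p85 alpha, the regulatory subunit that docks PI3 kinase on the IRS proteins, and Pik3ca encodes p110 alpha, the catalytic subunit that insulin uses in liver. Pik3r1 was between 8.62 and 10.7 FPKM in Con mice (median 9.91) and between 7.33 and 10.6 FPKM in Exe mice (median 8.41). Exe 1, Exe 3, Exe 4 and Exe 6 were below every Con mouse, and Exe 2 and Exe 5 lay among the Con values. The log2 fold change was -0.15 (95% interval -0.34 to 0.03, limma, adjusted p = 0.851), the lowest of the 9 members. Without Exe 5 it was -0.21, past an unadjusted p of 0.05 (limma, adjusted p = 0.534). This was the single member to reach an unadjusted p of 0.05 under any alternative.

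Pik3ca was between 2.90 and 3.86 FPKM in Con mice (median 3.51) and between 2.92 and 4.32 FPKM in Exe mice (median 3.45). The groups covered nearly the same range, with Exe 4 above the rest. Its log2 fold change was 0.02 (95% interval -0.16 to 0.20, limma, adjusted p = 0.985). Pik3r1 was 2.87 ± 0.412 times Pik3ca in Con mice and 2.52 ± 0.410 times in Exe mice (SD, n = 6), a difference in mean log2 ratio of -0.20 (exact permutation p = 0.167, adjusted over 5 ratios 0.417).

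Among the catalytic subunits Pik3ca held 43.5% of the FPKM, followed by Pik3cb with 35.6%, Pik3cd, the subunit of blood cells, with 19.0%, and Pik3cg with 1.80%. Pik3r1 held 52.3% of the regulatory subunits and Pik3r2 44.3%. All 3 PI3K genes tested beside the members had lower mean log2 levels in Exe mice, where 57.5% of all genes tested were higher. Their log2 fold changes were -0.08 for Pik3cb, -0.12 for Pik3r2 and -0.16 for Pik3cd, and none passed the test. The smallest adjusted p of the 3 was 0.849 from limma.

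Akt1 and Akt2 encode the kinases that relay the PI3 kinase signal, AKT2 being the isoform most tied to insulin's control of glucose. Akt1 was between 24.2 and 27.8 FPKM in Con mice (median 25.5) and between 22.3 and 25.9 FPKM in Exe mice (median 24.3). Exe 3 and Exe 5 were below every Con mouse. The log2 fold change was -0.07 (95% interval -0.18 to 0.04, limma, adjusted p = 0.8997). Akt2 was between 33.5 and 38.1 FPKM in Con mice (median 34.2) and between 34.8 and 40.2 FPKM in Exe mice (median 37.0). Exe 2, Exe 5 and Exe 6 were above every Con mouse. Its log2 fold change was 0.09 (95% interval -0.03 to 0.21, limma, adjusted p = 0.876). These were among the steadiest genes, with a smaller SD of the log2 level in only 4.98% of the genes tested for Akt1 and 13.1% for Akt2.

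Taken within each mouse, where scaling between libraries cancels, the ratio of Akt2 to Akt1 separated the groups more than either gene did. It was between 1.304 and 1.49 in Con mice and between 1.42 and 1.64 in Exe mice. The Exe mice 2, 3, 5 and 6 were above every Con mouse, and every Con mouse except Con 4 was below every Exe mouse. The mean log2 ratio was 0.45 ± 0.065 in Con mice and 0.62 ± 0.086 in Exe mice (SD, n = 6). The difference of 0.17 had an exact permutation p of 0.00649 (two-sided), or 0.0325 when adjusted over the 5 ratios examined. This adjustment does not cover the choice of the ratios with earlier results known. With 1 mouse left out in turn the difference stayed between 0.15 and 0.19 and the adjusted p between 0.0325 and 0.0649, under 0.05 in 5 of the 12 cases. The adjusted p was over 0.05 without Con 1, Con 2, Con 3, Con 5, Con 6 or Exe 5 (0.0649 for each) and without Exe 2 (0.0541). Without both Con 1 and Exe 5, the mice with the highest acute-phase sums, the difference was 0.15 (adjusted p = 0.119, exact permutation test). The sum of the 9 hepatocyte markers was also higher in Exe mice (median 76617 against 64342 FPKM), and its part in the ratio was not tested. Akt2 was 57.8% ± 1.09 of the summed FPKM of Akt1 and Akt2 in Con mice and 60.6% ± 1.43 in Exe mice.

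**Figure D2:**
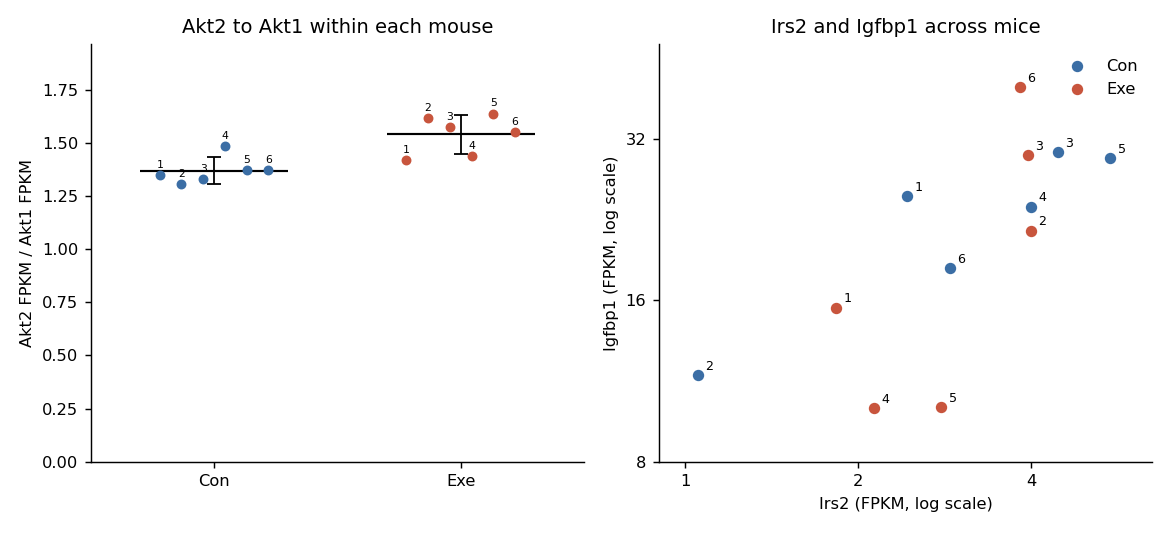
Left, FPKM of Akt2 divided by that of Akt1 in each mouse (y axis from 0), with the group mean as a line and the SD as a bar. Right, Igfbp1 against Irs2 in FPKM on log axes, a point per mouse. The Con ratios lie between 1.304 and 1.49 and the Exe ratios between 1.42 and 1.64, and Irs2 and Igfbp1 rise together with an r of 0.73 over 12 mice.

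**Figure D3:**
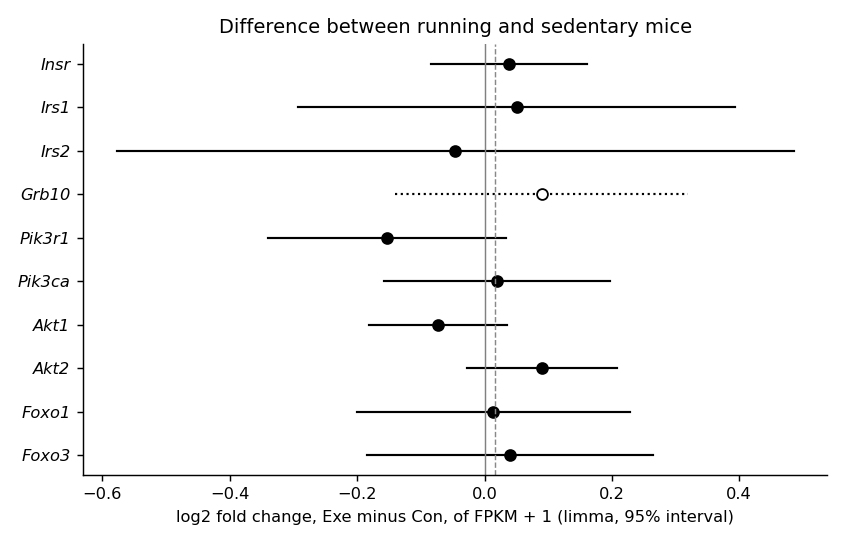
Log2 fold change of Exe over Con mice on the log2(FPKM + 1) scale (x axis) for the 10 genes, with 95% intervals from limma. The open point with a dotted interval is Grb10, fitted without the filter, and the dashed line is the median of all genes tested (0.02). All 10 intervals include 0, and that of Irs2 is the widest, from -0.58 to 0.49.

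Foxo1 and Foxo3 encode the forkhead factors that AKT holds out of the nucleus, FOXO1 being the main one for glucose output in liver. Foxo1 was between 3.69 and 5.37 FPKM in Con mice (median 4.65) and between 3.85 and 5.34 FPKM in Exe mice (median 4.64). In each group the mice fell apart into 3 at 5.01 FPKM or more (Con 1, Con 2 and Con 3, Exe 1, Exe 2 and Exe 6) and 3 at 4.28 FPKM or less. The log2 fold change was 0.01 (95% interval -0.20 to 0.23, limma, adjusted p = 0.993). Foxo3 was between 5.74 and 6.99 FPKM in Con mice (median 6.27) and between 5.23 and 8.67 FPKM in Exe mice (median 6.67). Exe mice lay on both sides of the Con range, Exe 1, Exe 2 and Exe 6 above it and Exe 3 and Exe 5 below it. Its log2 fold change was 0.04 (95% interval -0.18 to 0.26, limma, adjusted p = 0.972).

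Foxo1 was 0.720 ± 0.125 times Foxo3 in Con mice and 0.7005 ± 0.061 times in Exe mice (SD, n = 6, exact permutation p = 0.818). The most abundant FOXO transcript of this liver was Foxo4, with 41.7% of the family, followed by Foxo3 with 34.2% and Foxo1 with 24.1%. Foxo6, a factor of the brain, was listed at 0 in all mice but Con 4.

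**Figure D4:**
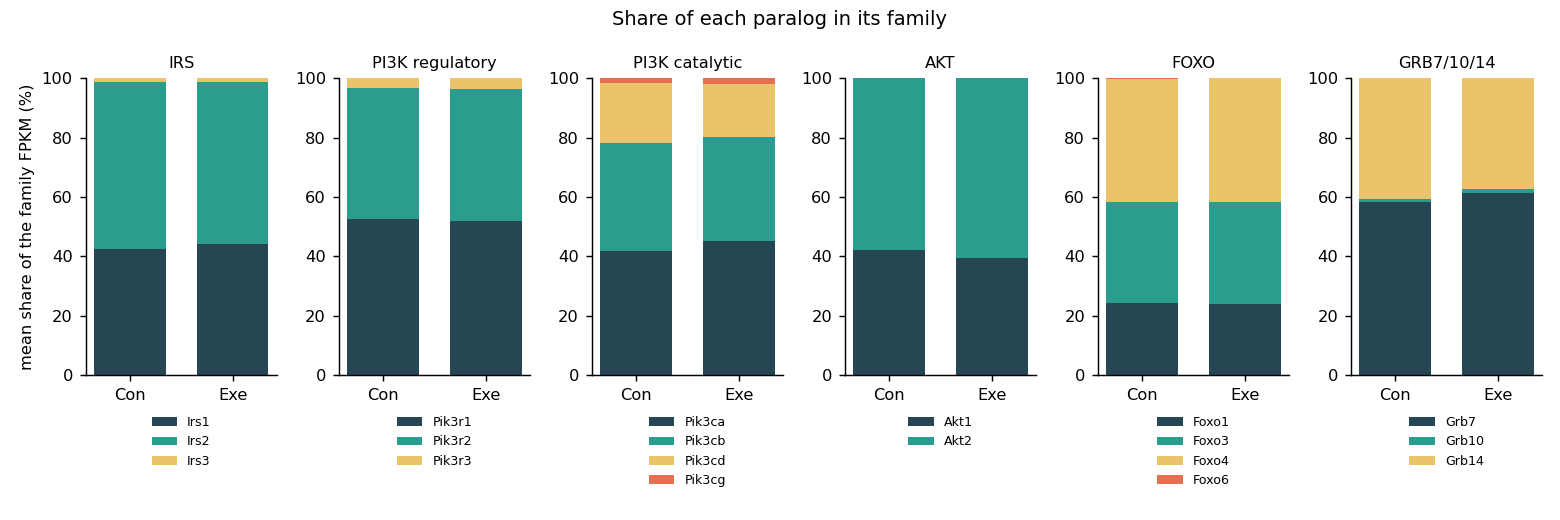
Mean share of each paralog in the summed FPKM of its family (y axis, percent) in Con and Exe mice, for the IRS, PI3K regulatory, PI3K catalytic, AKT, FOXO and GRB7/10/14 genes. The share of Akt2 beside Akt1 goes from 57.8% in Con to 60.6% in Exe mice.

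Between members, 45 pairs were compared over the 12 mice after the group means were taken off, as a description without a test, since levels in a library share its depth and tissue makeup. In 2 pairs r exceeded 0.7 in size. Pik3r1 and Grb10 ran opposite to each other (r = -0.87, rho = -0.80), with r = -0.85 within Con and -0.90 within Exe mice. Mice with the highest Pik3r1, such as Con 5, Exe 5 and Con 2, had Grb10 at 0.77, 0.53 and 0.65 FPKM, while Exe 6, with Pik3r1 at 7.54 FPKM, had Grb10 at 1.27 FPKM. Irs1 and Pik3ca rose together (r = 0.83, rho = 0.82), with r = 0.72 within Con and 0.91 within Exe mice. Foxo1 and Foxo3 had an r of 0.61, with r = 0.92 within Exe and -0.03 within Con mice, and this difference was not tested.

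Of the 10232 other genes tested, the most like each member over the 12 mice, by Pearson's r after removing the group means, were Rere for Insr (r = 0.92), Ythdf1 for Irs1 (0.95), Snx21 for Irs2 (0.90), Pex11a for Akt1 (0.90), 2410002F23Rik for Akt2 (0.93), Cdhr5 for Foxo1 (0.91), Hsd17b4 for Foxo3 (0.94), Slc39a14 for Pik3r1 (0.90), Yy1 for Pik3ca (0.94) and Grb7 for Grb10 (0.91). The best of so many genes reaches a high r over 12 mice, so these values only describe the pattern. Grb7 is a relative of Grb10 in the same adaptor family.

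The other genes of the pathway were counted in 7 lists. Of 94 list genes past the filter, 43 had a higher and 51 a lower mean log2 level in Exe mice, 0 reached an adjusted p of 0.05, and 9 (9.57%) reached an unadjusted p of 0.05 from limma, where 6.21% of all genes tested did. These 9 were 4 higher and 5 lower genes, and all were inhibitors, FOXO targets or genes that insulin raises. With 1 mouse left out in turn, the count of 9 went from 5 (without Con 1, Con 2, Con 3, Exe 2 or Exe 6) to 12 (without Exe 4). The median log2 fold changes of the receptors and adaptors and of the AKT list changed sign, the first to 0.0051 without Con 2 and the second to 0.0029 without Con 4 and 0.0034 without Exe 1.

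Among the receptors and adaptors, 4 of 10 genes had the higher mean in Exe mice and 6 the lower, beside 57.5% higher over all genes tested. None of them passed an unadjusted p of 0.05, and their median log2 fold change was -0.03. The most abundant was Shc1, an adaptor toward the RAS pathway, at 21.4 ± 0.917 FPKM in Con and 21.0 ± 1.44 FPKM in Exe mice (SD, n = 6). The smallest p belonged to the adaptor Sh2b2 (log2 fold change 0.13, limma, adjusted p = 0.885). Of AKT's partners and substrates, 7 of 17 were higher and 10 lower, with 0 past an unadjusted p of 0.05. Gsk3b, a kinase that AKT inhibits, had a log2 fold change of -0.13 (limma, adjusted p = 0.851), and Mlst8, a subunit of the mTOR complexes, 0.10 (adjusted p = 0.8997). Gys2, the liver glycogen synthase and the most abundant of the list, was at 72.8 ± 19.0 FPKM in Con and 67.1 ± 18.2 FPKM in Exe mice.

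Of the inhibitors, 4 of 17 had the higher mean in Exe mice and 13 the lower, beside 57.5% higher over all genes tested. Their median log2 fold change was -0.05. At an unadjusted p of 0.05 there were 2, both lower, where 1.94% of all genes tested were lower and 4.27% higher. Trib1, a pseudokinase, was 9.43 to 12.8 FPKM across Con and 7.70 to 11.2 FPKM across Exe mice. For Trib1 all Exe mice but Exe 5 lay under the Con range (5 of 6), and the log2 fold change was -0.25 (limma, adjusted p = 0.793). Socs3, a feedback inhibitor of cytokine and insulin receptors, was 3.47 to 13.3 FPKM across Con and 2.52 to 4.96 FPKM across Exe mice, with a log2 fold change of -0.55 (limma, adjusted p = 0.793). The highest Socs3 lay in Con 1, which also had the highest acute-phase sum (41957 FPKM). Exe 5 had a sum of 41631 FPKM, yet no Exe mouse held Socs3 above 4.96 FPKM. The acute-phase sum was lower at the median in Exe mice, as were Socs3 and Trib1 on average, and its part in their differences was not tested. Ahsg, the plasma protein fetuin A and the most abundant of the list, was at 6283 ± 501 FPKM in Con and 6522 ± 467 FPKM in Exe mice.

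Of the FOXO regulators and relatives, 10 of 14 were higher in Exe mice, beside 57.5% over all genes tested, with 0 past an unadjusted p of 0.05. Ywhae, a 14-3-3 protein that binds phosphorylated FOXO and the most abundant of the list, had a log2 fold change of 0.09 (limma, adjusted p = 0.892), and the nuclear exporter Xpo1 also 0.09 (adjusted p = 0.929).

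Of genes known to be raised by FOXO, 8 of 22 had the higher mean in Exe mice and 14 the lower, beside 57.5% higher over all genes tested. Their median log2 fold change was -0.05. At an unadjusted p of 0.05, 3 were lower and 1 was higher, where 1.94% of all genes tested were lower and 4.27% higher. Klf15, a glucocorticoid-responsive factor of amino acid breakdown, was 72.6 to 101 FPKM across Con and 53.3 to 79.4 FPKM across Exe mice. For Klf15, 5 Exe mice lay below every Con mouse, with a log2 fold change of -0.36 (standard error 0.11, limma, adjusted p = 0.756). The other lower genes were Trib1, given above, and Tat, an enzyme of tyrosine breakdown (log2 fold change -0.55, limma, adjusted p = 0.793). Of the mice with the highest acute-phase sum in each group, Con 1 held the highest Klf15 of all mice (101 FPKM) and Exe 5 the lowest (53.3 FPKM). The part of the acute-phase and biliary sums, also lower at the median in Exe mice, was not tested. Apoc3, an apolipoprotein that slows triglyceride clearance and the most abundant of the list, went the other way, from 3857 ± 444 FPKM in Con to 4508 ± 533 FPKM in Exe mice (log2 fold change 0.22, limma, adjusted p = 0.799). Pck1 was 605.8 to 1448 FPKM across Con and 537.7 to 1034 FPKM across Exe mice (log2 fold change -0.44, limma, adjusted p = 0.809), and Igfbp1 had a log2 fold change of -0.23 (adjusted p = 0.953).

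Of genes that insulin raises in liver, 10 of 12 had the higher mean in Exe mice and 2 the lower, the median log2 fold change being 0.20, beside 57.5% higher over all genes tested. With 1 mouse left out this median went from 0.08 (without Con 2) to 0.31 (without Exe 3). At an unadjusted p of 0.05, 3 were higher and 1 was lower, where 4.27% of all genes tested were higher and 1.94% lower. Acly, the enzyme that makes cytosolic acetyl-CoA, was 48.4 to 59.7 FPKM across Con and 59.8 to 119 FPKM across Exe mice. All 6 Exe values exceeded all 6 Con values, the nearest being 59.8 and 59.7 FPKM, and 0.254% of all genes tested were free of overlap in either direction. Its log2 fold change was 0.44 (standard error 0.13, limma, adjusted p = 0.789). Elovl6, a fatty acid elongase, and Acaca, the carboxylase that commits acetyl-CoA to fatty acid synthesis, had log2 fold changes of 0.46 and 0.32 (adjusted p = 0.799 for both). Scd1, the most abundant of the list, was at 703.3 ± 231 FPKM in Con and 697.5 ± 182 FPKM in Exe mice. None of the list passed the adjusted p.

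**Figure D5:**
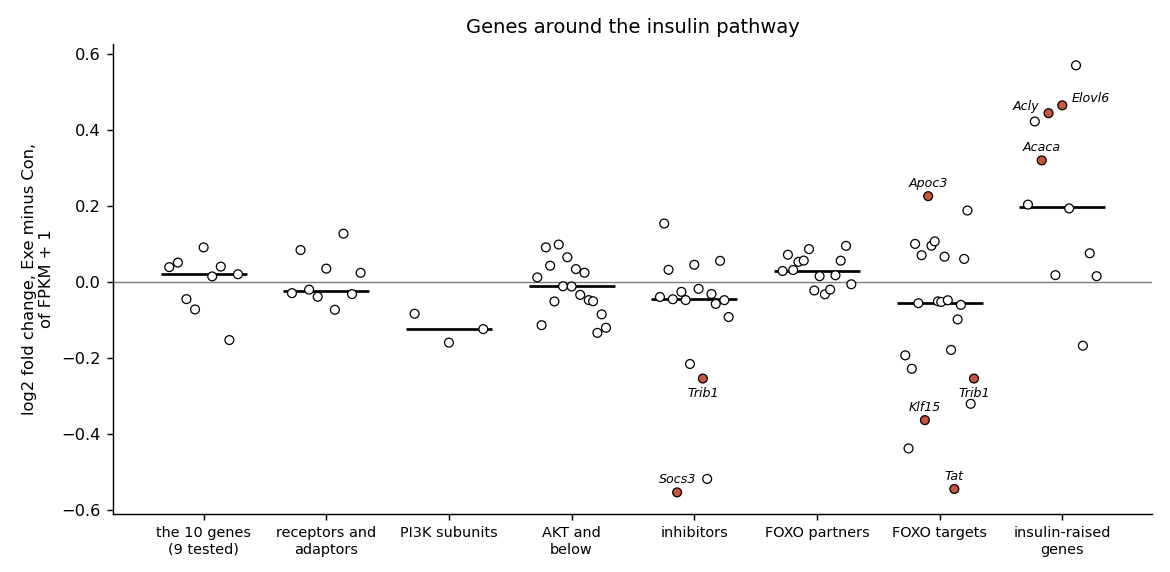
Log2 fold change of Exe over Con mice on the log2(FPKM + 1) scale (y axis) for the members and the genes of 7 pathway lists past the filter, a circle per gene reported here, with the median over all tested genes of each list as a line. Filled circles with names reached an unadjusted p of 0.05 from limma and none reached an adjusted p of 0.05, and the medians run from -0.12 (PI3K subunits) to 0.20 (genes that insulin raises).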

How the data were processed

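Liver RNA was extracted with TRIzol and sequenced in paired ends on the DNBseq platform. After removal of low-quality reads the authors used HISAT and GRCm39 for alignment, and they deposited 1 FPKM value per gene and mouse, without counts. The submitters' processing notes also name Bowtie2 and mm10 without a role, and the program behind the FPKM is not given in the sources used here. Read depth is therefore unknown. Relative depth, from 332 genes of few reads whose FPKM step in whole multiples, lay between 0.964 and 1.02, and FPKM sums between 735200 and 820107.

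The 10 genes, the gene lists, the ratios and the pairs were chosen with earlier results of these data known. log2(FPKM + 1) was fitted with limma 3.58.1 (R 4.3.3, group as the only term, eBayes with trend, Benjamini-Hochberg over 10241 genes), a test checked on simulated data. Calls need an adjusted p of 0.05. The fold change of low genes is understated on this scale. Ratios were tested with exact permutation tests over the 924 splits of the mice, correlations with 100000 permutations (exact within a group of 6). The permutations ran in numpy 2.4.6 under Python 3.11.15. Named besides the members were, in each list, the 2 genes of smallest p, the most abundant gene and the genes paired with Irs2, and for each member the gene most like it. Tat, Acaca, G6pc, Igf1r, Irs3, Foxo4, Foxo6, Pik3cd, Pik3cg, Grb7 and Grb14 were named after their values were seen. Symbols of all 10 members matched RefSeq. A few genes of the lists and 1 of the 6 pairs are not reported here, and they remain in the counts and adjustments.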

Additional observations from a re-analysis of the deposited data

Results flagged for a closer look

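Among 68 sets of 6 mice (34 genes and ratios in 2 groups), 4 had a mouse far from the rest by Dixon's ratio at 95%, where chance gives 3.4. None of them concerned the 10 members, which supplied only a part of the sets. With a count so near chance, that absence says nothing particular about the members. The mice were also those kept after the paper's exclusion of outliers. Socs3 stood at 13.3 FPKM in Con 1 against 6.91 FPKM in the next Con mouse. Apoc3 was low in Con 3, at 3018 FPKM, with the next Con mouse at 3785 FPKM. In Exe 2, Acly was at 119 FPKM against 76.99 FPKM in the next Exe mouse, and Elovl6 at 28.6 FPKM against 15.3 FPKM.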

How the results depend on the processing

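Under the alternatives 622 values were computed, of which 564 had the sign and call given in the report or were counted as within its spread. That spread was wide. It took in list medians that changed sign and a count of 910 genes at an unadjusted p of 0.05 (limma, without Exe 5) against 636. The members past an adjusted p of 0.05 were 0 in each of the 20 other fits. Without a filter on low values, 1 gene of the whole series reached an adjusted p of 0.05. The count of genes at an unadjusted p of 0.05 went from 418 (without Exe 2) to 910 (without Exe 5) with 1 mouse left out, that of list genes from 5 to 12, and that of members from 0 to 1. The 1 member was Pik3r1, without Exe 5, with the replicate number as a block, and without both Con 1 and Exe 5, an alternative chosen after seeing the data. With 1 mouse left out the log2 fold change ranged from -0.048 to 0.128 for Irs1, from -0.247 to 0.0858 for Irs2, from -0.0337 to 0.0547 for Foxo1, from -0.0311 to 0.0957 for Foxo3 and from -0.0312 to 0.0569 for Pik3ca, each of which changed sign. Without both Con 1 and Exe 5, Pik3ca was at -0.0184, the log2 ratio of Akt2 to Akt1 differed by 0.15 (adjusted p = 0.119) and that of Foxo1 to Foxo3 by 0.0003. With 1 mouse left out these differences ranged from 0.15 to 0.19 for Akt2 to Akt1, from -0.0793 to 0.033 for Foxo1 to Foxo3 and from -0.45 to 0.14 for Irs2 to Irs1. The adjusted p of Akt2 to Akt1 was over 0.05 without Con 1, Con 2, Con 3, Con 5, Con 6, Exe 2 or Exe 5. The r of Irs2 with Igfbp1 ranged from 0.70 to 0.80, and its adjusted p was over 0.05 without any 1 of 9 mice, the others being Con 1, Exe 5 and Exe 6. Irs2 with Pck1 ranged from -0.146 to 0.158 and was -0.0017 with the group means subtracted. In fits with the replicate block, the difference of 0.17 for Akt2 to Akt1 had an exact permutation p of 0.0625 and an adjusted p of 0.156. With 6 pairs the smallest two-sided p of this test is 0.0312, or 0.156 when adjusted over 5 ratios with larger p. Akt2 to Akt1 did not reach that smallest p, and Pik3r1 to Pik3ca had the same adjusted p of 0.156. With so few pairs the test says little of stability. The labels name no pairing by number. Same-numbered mice deviated together (r over 0.1 across genes) in 1 of 6 pairs, and 1 of 6 Exe mice correlated best with its own number. So few pairs cannot settle whether same-numbered mice shared a batch. The cause of these changes was not tested. Read depth is unknown, so counting error could not be given.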
